A study of Mus musculus with 16 samples.

Results

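The 8 genes described here, Tbx21, Eomes, Il18r1, Cxcr3, Ifng, Ccl5, Gzmb and Nkg7, belong to the type 1 effector program of T cells and were followed through their ATAC-seq peaks, which mark where a transposase can insert into DNA. A peak was taken when it overlapped the gene body of a member or had the member as its nearest protein-coding gene within 50 kb, which gave 52 of the 73442 peaks of the series. The genes had been chosen by the measured signal itself, for peaks higher in precursors of regulatory T cells (preTreg) than in regulatory T cells (Treg). At these 52 peaks, every value of preTreg against another population, and of Treg against the rest, is therefore a description without a test. Effects of genotype and the difference between the other populations were not used for the choice and were tested.

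T-bet, the product of Tbx21, is the transcription factor that directs T helper type 1 cells, and Eomes is a related T-box factor known mainly from cytotoxic and innate-like lymphocytes. Interferon gamma, encoded by Ifng, is the signature cytokine of the program, and IL-18, read through a receptor with the chain encoded by Il18r1, promotes its production. Cxcr3 encodes a chemokine receptor, Ccl5 a chemokine, Gzmb the protease granzyme B of cytotoxic granules and Nkg7 a membrane protein of the same granules. In the thymus the program is best known from innate-like T cells such as type 1 natural killer T cells.

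The libraries came from the thymus of C57BL/6J mice that all carried the Foxp3GFP reporter allele. The mice were of 2 genotypes, CNS4FL/YFoxp3GFP/Y (FL, CNS4-sufficient; mice T9 and T10) and CNS4KO/YFoxp3GFP/Y (KO, CNS4-deficient; mice T7 and T8), where CNS4 is a conserved non-coding sequence of Foxp3. The labels give no age. From each mouse 4 populations of CD4+CD8-TCRβ+ cells were sorted, namely Treg (Foxp3-GFP+), preTreg (CD25+Foxp3-GFP-), and CD25-Foxp3-GFP- cells called mSP (mature; low CD24, high TCRβ) or smSP (semimature; high CD24, low TCRβ), with 40000 to 50000 cells for a replicate. A population thus had 4 libraries, 2 of each genotype and 1 per mouse. A value is the signal of a peak, its reads divided by the size factor of the library, and 4 values of a population are listed in the order T9, T10, T7, T8, that is FL before KO.

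The 16 libraries held 5585827 to 11437401 reads in peaks. The peak at CNS4 (chrX:7570739-7571052) had a signal of 47.7 to 140 in the 8 FL libraries and 0 in the 8 KO libraries. The 3 peaks given to Foxp3 by the rule above did not include this CNS4 peak. Their summed signal averaged 324 in Treg and 4.91, 1.88 and 4.23 in preTreg, mSP and smSP. The libraries labelled mSP and smSP went against their sort marker, since the summed signal of Cd24a, the gene of CD24, was 554 to 582 in mSP and 257 to 340 in smSP and was higher in mSP in 4 of 4 mice. S1pr1, a receptor gene of mature thymocytes, ran 1607 to 2108 in mSP and 2916 to 3486 in smSP. For mouse T8 the description of these 2 libraries also named the opposite population from the title. The titles were followed, both populations are called by label only, and some counts that use the T8 SP libraries are also given without them. Other values, such as levels, sums, correlations and the counts of Treg against mSP or smSP, include them.

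The starts of 4 genes lay under a peak at which all preTreg libraries exceeded all others, and their upstream sequence is shown for that reason. Each line gives the 250 bases before the gene start from RefSeq (GRCm38.p6, the mm10 build), 5′ to 3′ on the strand of the gene, with the bases under a deposited peak in capitals. RefSeq held such a sequence for 7 of the 8 genes.
Tbx21 (chr11:97115332-97115581, minus strand): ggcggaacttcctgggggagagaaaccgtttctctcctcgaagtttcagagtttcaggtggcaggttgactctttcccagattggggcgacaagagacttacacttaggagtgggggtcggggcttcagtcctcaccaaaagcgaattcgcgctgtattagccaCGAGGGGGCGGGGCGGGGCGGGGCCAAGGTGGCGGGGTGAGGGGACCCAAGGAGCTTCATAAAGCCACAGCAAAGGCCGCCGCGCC
Nkg7 (chr7:43436888-43437137, plus strand): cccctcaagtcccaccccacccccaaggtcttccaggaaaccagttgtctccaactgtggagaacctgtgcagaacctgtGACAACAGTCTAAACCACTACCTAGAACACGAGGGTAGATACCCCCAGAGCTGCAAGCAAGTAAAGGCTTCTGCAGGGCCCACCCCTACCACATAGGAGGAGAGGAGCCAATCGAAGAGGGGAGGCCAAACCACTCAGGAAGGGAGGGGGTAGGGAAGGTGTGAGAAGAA
Cxcr3 (chrX:101734148-101734397, minus strand): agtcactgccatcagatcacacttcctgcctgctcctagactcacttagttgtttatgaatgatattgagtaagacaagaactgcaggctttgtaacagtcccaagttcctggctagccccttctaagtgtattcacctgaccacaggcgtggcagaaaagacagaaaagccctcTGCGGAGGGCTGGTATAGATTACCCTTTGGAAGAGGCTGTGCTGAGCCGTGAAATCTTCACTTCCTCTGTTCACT
Ifng (chr10:118440796-118441045, plus strand): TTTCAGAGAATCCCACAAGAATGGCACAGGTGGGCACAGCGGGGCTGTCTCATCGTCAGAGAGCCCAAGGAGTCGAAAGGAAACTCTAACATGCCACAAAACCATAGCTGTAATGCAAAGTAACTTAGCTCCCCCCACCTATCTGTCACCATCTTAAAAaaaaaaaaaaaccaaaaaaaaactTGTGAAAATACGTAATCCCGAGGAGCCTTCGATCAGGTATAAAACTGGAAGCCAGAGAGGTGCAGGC
In these windows 86 bases of Tbx21, 170 of Nkg7, 75 of Cxcr3 and 226 of Ifng lay under peaks. For Tbx21, Nkg7 and Cxcr3 the covered bases were those nearest the start, whereas 2 peaks covered the Ifng window except for the A-rich run between them. For Il18r1, which has 3 annotated starts, the window before another start than the first (chr1:40465371-40465620) was used, which reaches into the gene body, and its peak covered 115 bases. No peak touched the windows of Eomes and Gzmb. Motif letters were searched on both strands of the 7 windows. A T-box match (GGTGTGA, in 3.33% of 32851 RefSeq windows of this length) lay in Nkg7, 13 to 7 bases before its start and under the peak. A STAT match (TTCNNNGAA, in 7.02%) lay under the upstream peak of Ifng, 249 to 241 bases before its start, and another lay in Nkg7 outside the peak. The searches for AP-1 (TGANTCA, in 6.75%) and RUNX (TGTGGTT, in 4.40%) each matched only in Gzmb, that for NFAT (TGGAAA, in 18.6%) only in Il18r1, and that for ETS (CCGGAAG, in 6.91%) in none of the 7. No matches overlapped each other, and a match is a description of letters only.

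preTreg libraries stood apart at every peak of Tbx21, Nkg7 and Cxcr3 and at part of the Ifng locus, and at few or no peaks of the other genes. Of the 52 peaks, all of which passed the filter on low values, 19 had all 4 preTreg libraries above all 12 others. These were the 3 peaks of Tbx21, both peaks of Nkg7 and of Cxcr3, 9 of 23 of Ifng, and 1 each of Gzmb (of 7), Il18r1 (of 8) and Ccl5 (of 2), while Eomes had none of 5. Over all tested peaks this pattern held for 4.72%, a share beside which the count cannot be read as a result because the genes were chosen for it. Without the SP libraries of T8 the count was again 19. The 4 Treg libraries stood above all others at 3 peaks, all of Ifng (5.17% of all peaks), the 4 mSP libraries at 2, of Ifng and Il18r1 (6.88%), and the 4 smSP libraries at 0 (0.812%).

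Against Treg, preTreg libraries were all higher at 21 of 52 peaks (12.2% of all tested peaks) and all lower at 5 (12.4%). The median difference on the log2(signal + 1) scale was 0.26 for the 52 peaks and 0.03 for all peaks. Against mSP they were all higher at 30 (24.3%) and all lower at 6 (25.6%), with a median of 1.00. Against smSP they were all higher at 29 (19.2%) and all lower at 4 (19.9%), with a median of 0.85. Without the SP libraries of T8 these counts were 30 and 7 against mSP and 29 and 5 against smSP. The comparisons share the preTreg libraries, and nothing is read from the counts. Of the 17 peaks in gene bodies, 7 were all higher and 0 all lower in preTreg than in Treg. Treg libraries in turn were all above mSP at 23 of the 52 peaks (21.9%) and all below at 4 (23.2%), and all above smSP at 18 (16.6%) and all below at 3 (17.8%). In sorted bulk cells, a change in the share of cells with an open site and a change in how often each cell is open cannot be told apart.

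**Figure D1:**
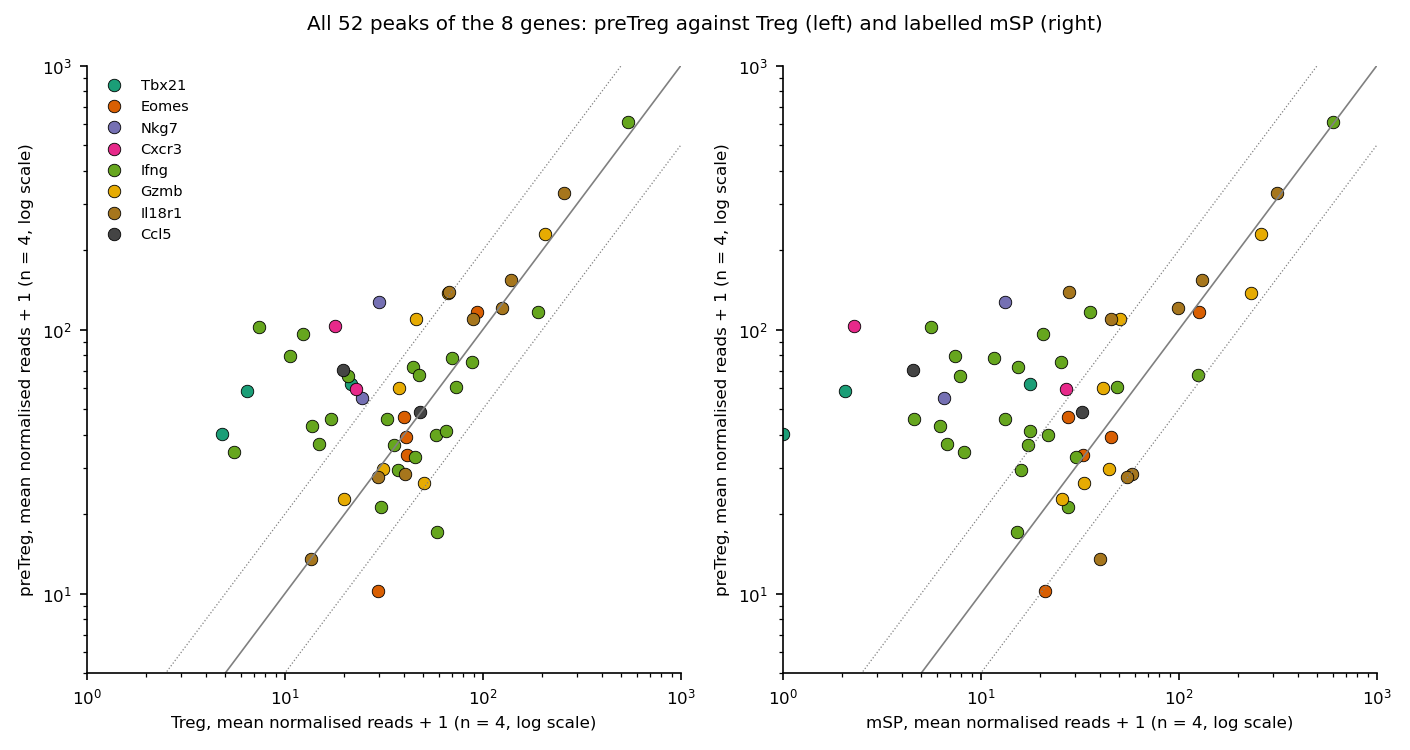
Mean signal + 1 of the 52 peaks in preTreg (vertical axes, log scale) against Treg (left) and the libraries labelled mSP (right), n = 4 libraries per mean, with 1 point per peak coloured by gene; the solid line marks equal values and the dotted lines a difference of 1 on the log2 scale. Peaks of Tbx21, Nkg7 and Cxcr3 lie above the solid line in both panels, and those of Eomes and Il18r1 lie on both sides of it.

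Of the transcription factor genes, Tbx21 (chr11:97098007-97115331, minus strand) was nearly closed inside the gene in all populations except preTreg. The tables used here give gene bodies but not exons and introns. Its peak at chr11:97109032-97109283, 6.07 kb inside the gene, had a signal of 8.09, 2.76, 6.08 and 4.80 in Treg, 65.1, 62.7, 57.2 and 46.0 in preTreg, 0, 0, 0 and 4.31 in mSP and 1.15, 0.784, 2.69 and 1.09 in smSP. All preTreg libraries lay far above all the others, and 3 of the 4 mSP libraries held no read. The mean in preTreg, 57.7 ± 8.51 (SD, n = 4), was 10.6-fold that in Treg. A further peak in the gene body, chr11:97112707-97112861, averaged 3.81 ± 2.45 in Treg, 39.4 ± 5.77 in preTreg and 3.34 ± 3.32 in smSP, and had 0 reads in each of the 4 mSP libraries, a count that allows up to 3 reads per library. At the start itself (chr11:97115249-97115417) the signal was 20.2, 18.6, 20.7 and 23.0 in Treg, 71.1, 53.0, 55.4 and 65.3 in preTreg, 22.1, 14.3, 5.74 and 24.4 in mSP and 13.8, 22.8, 22.8 and 14.1 in smSP. There the other populations were not closed, their libraries overlapped, and the preTreg mean was 2.96-fold that of Treg.

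Eomes (chr9:118478186-118486132, plus strand) showed no such pattern. Its 5 peaks summed to 242 ± 8.08 (Treg), 242 ± 27.1 (preTreg), 249 ± 34.2 (mSP) and 229.9 ± 40.6 (smSP) (SD, n = 4), and no neighbours in the order of levels were separated. The peak of the gene body, chr9:118479163-118479332, ran 46.5, 46.2, 40.1 and 29.8 in Treg, 39.4, 31.8, 24.9 and 34.0 in preTreg, 31.5, 32.3, 36.7 and 27.3 in mSP and 59.8, 38.4, 34.9 and 32.6 in smSP, so that all 4 populations overlapped. The Eomes peak that differed most between preTreg and Treg was lower in preTreg. This weak peak (chr9:118432352-118432495, 45.7 kb upstream of the gene) had 24.3, 54.5, 13.4 and 22.1 in Treg, 8.56, 4.41, 13.8 and 10.1 in preTreg, 19.6, 17.9, 28.7 and 14.4 in mSP and 27.6, 22.8, 29.6 and 17.4 in smSP. Its Treg and preTreg ranges overlapped narrowly, preTreg lay below both SP populations, and 1 Treg library, that of mouse T10, stood above the other 3.

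The receptor genes differed from each other. Cxcr3 (chrX:101731535-101734147, minus strand) had 2 peaks, and at both every preTreg library exceeded every other library. The peak 3.17 kb upstream of the start (chrX:101737227-101737520) had 14.2, 11.0, 20.7 and 22.1 in Treg, 84.8, 124, 87.7 and 111 in preTreg, 0, 0.896, 0 and 4.31 in mSP and 1.15, 3.92, 6.72 and 2.17 in smSP. Treg libraries were thus between preTreg and the SP populations without overlap, and the preTreg mean of 102 ± 19.1 was 6.01-fold that of Treg. At the start (chrX:101734045-101734222) the signal was 12.1, 20.0, 23.1 and 32.6 in Treg, 58.2, 45.0, 62.8 and 68.0 in preTreg, 34.9, 35.0, 22.9 and 11.5 in mSP and 19.6, 17.3, 8.06 and 8.69 in smSP. Here Treg, mSP and smSP overlapped and the preTreg mean was 2.66-fold that of Treg.

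Il18r1 (chr1:40465552-40500854, plus strand) was open in every population, and only 1 of its 8 peaks, all inside the gene body, set preTreg apart. At that peak (chr1:40469976-40470235, 4.53 kb from the start) the signal was 63.7, 49.0, 81.5 and 71.0 in Treg, 124, 124, 155 and 149 in preTreg, 37.4, 18.8, 25.2 and 25.8 in mSP and 54.1, 54.9, 65.8 and 56.5 in smSP. The preTreg mean of 138 ± 16.4 was 2.08-fold the Treg mean and 5.14-fold the mSP mean. At the start (chr1:40465506-40465737) the values ran 102, 115, 142 and 139 in Treg, 115, 120.0, 129 and 118 in preTreg, 104, 70.8, 110.2 and 111 in mSP and 116, 109, 111 and 81.5 in smSP, with Treg, preTreg and smSP overlapping. Within the same gene the order also turned over: the peaks at chr1:40474413-40474584, chr1:40474716-40474844 and chr1:40476947-40477086 were lower in all preTreg than in all mSP libraries. The last 2 of these were also lower in all Treg than in all mSP and smSP libraries. The sums of the 8 peaks were 918 ± 119 in preTreg, 756 ± 77.9 in Treg, 808 ± 71.8 in smSP and 761 ± 99.1 in mSP, and again no neighbouring levels were separated.

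**Figure D2:**
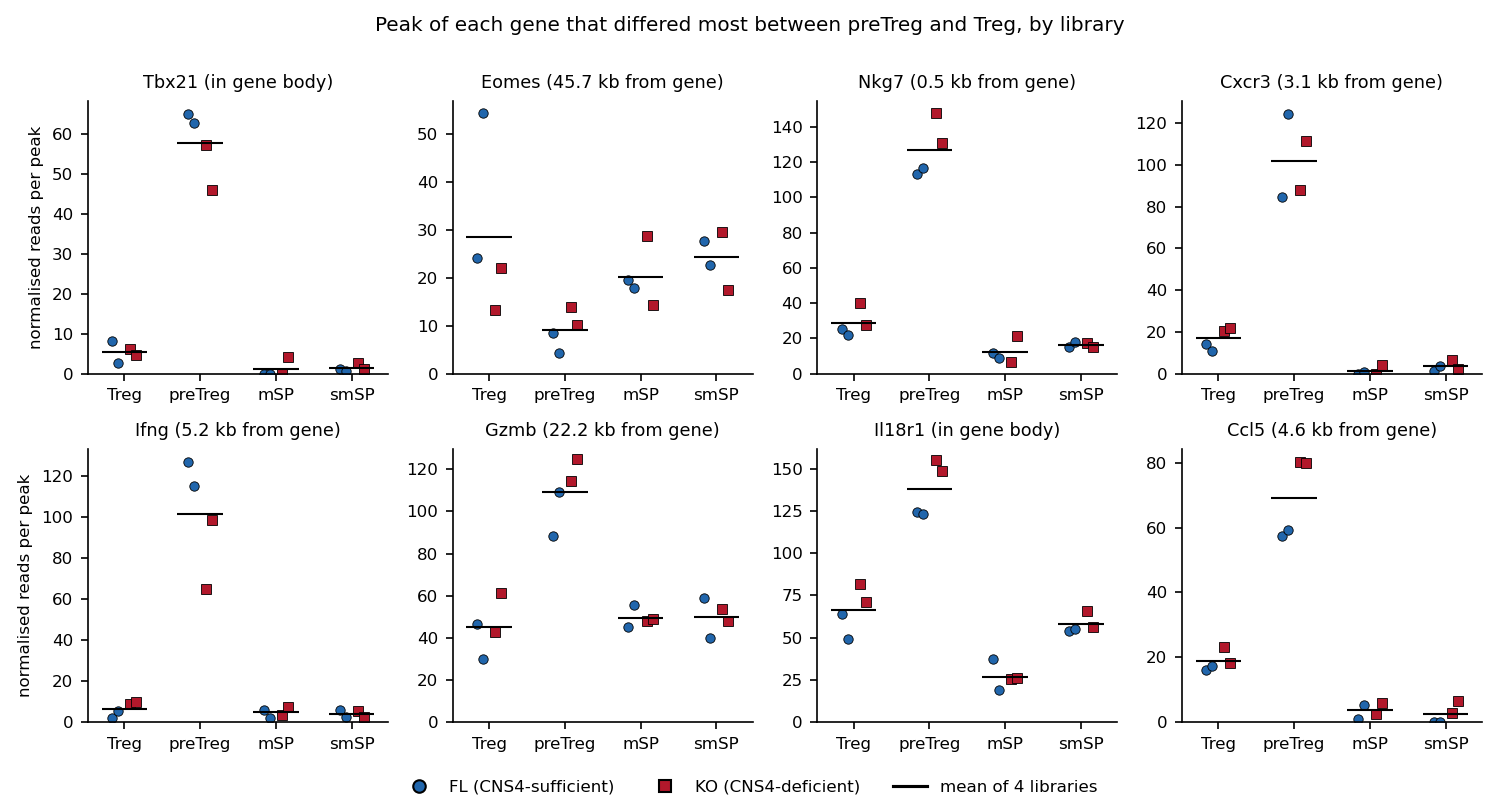
Signal (normalised reads per peak, vertical axes from 0) in each of the 16 libraries at the peak of each gene that differed most between preTreg and Treg, with FL libraries as circles, KO libraries as squares and the mean of the 4 libraries of a population as a line. Except for Eomes, where preTreg is lowest, all 4 preTreg libraries lie above the other 12.

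The Ifng locus (gene at chr10:118441046-118445894, plus strand), with 23 peaks, varied by position. Counted by zones drawn after the values had been seen, the 4 peaks from 5.34 kb upstream to the start summed to 32.0 ± 8.55 (Treg), 309 ± 40.1 (preTreg), 38.0 ± 9.61 (mSP) and 31.5 ± 8.38 (smSP) (SD, n = 4). preTreg alone was high in this stretch, at 9.65-fold the Treg sum, and the other 3 populations overlapped. The 2 further peaks of the gene body summed to 123 ± 18.8 in preTreg, 101 ± 12.0 in Treg, 26.3 ± 8.64 in smSP and 14.3 ± 5.07 in mSP, so that Treg and preTreg overlapped while both lay above both SP populations. Downstream, from 17.9 to 45.9 kb, the 11 peaks summed to 673 ± 64.6 (Treg), 555 ± 63.8 (preTreg), 325 ± 37.2 (mSP) and 276 ± 39.9 (smSP). In this stretch 10 of the 11 peaks had all Treg above all smSP libraries and 8 had all preTreg above all smSP libraries (16.6% and 19.2% of all tested peaks). Between Treg and preTreg the stretch was mixed, with all Treg above all preTreg libraries at 3 peaks and all below at 2 (12.4% and 12.2%). The 6 far upstream peaks, 34.1 to 21.2 kb before the start, summed to 847 ± 22.8 in preTreg, 751 ± 62.1 in smSP, 695 ± 60.2 in Treg and 693 ± 38.6 in mSP, so that preTreg was above the rest by less than at the start.

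Single Ifng peaks show the range of orders. The peak 5.34 kb upstream (chr10:118435483-118435855) had 2.02, 5.52, 8.51 and 9.60 in Treg, 127, 115, 64.6 and 98.3 in preTreg, 5.96, 1.79, 3.44 and 7.18 in mSP and 5.75, 2.35, 5.37 and 2.17 in smSP. No other population came near preTreg there, whose mean was 15.8-fold that of Treg. At the start (chr10:118440979-118441184) the signal was 8.09, 13.1, 8.51 and 8.64 in Treg, 75.4, 92.7, 56.3 and 89.2 in preTreg, 3.40, 8.07, 6.88 and 7.18 in mSP and 4.60, 2.35, 6.72 and 10.9 in smSP. The preTreg libraries were again alone, at 8.17-fold the Treg mean, and Treg libraries lay just above those of mSP. In the gene body, chr10:118442020-118442179 ran 61.7, 59.3, 81.5 and 72.0 in Treg, 82.2, 80.3, 84.9 and 62.5 in preTreg, 14.5, 10.8, 4.59 and 12.9 in mSP and 10.4, 20.4, 24.2 and 13.0 in smSP. Treg and preTreg thus differed near the start and overlapped 1.02 kb further in.

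Downstream of Ifng both orders were found. At chr10:118461766-118461931, 20.8 kb from the start, the signal was 67.8, 62.8, 58.4 and 42.2 in Treg, 11.1, 15.9, 15.7 and 22.1 in preTreg, 5.11, 19.7, 20.7 and 11.5 in mSP and 11.5, 13.3, 28.2 and 10.9 in smSP. Treg libraries stood alone and preTreg libraries overlapped both SP populations. A stronger downstream peak (chr10:118469112-118469425, 28.2 kb) ran 169.9, 175, 226 and 187 in Treg, 89.1, 93.5, 152 and 131 in preTreg, 40.8, 34.1, 28.7 and 34.4 in mSP and 39.1, 47.1, 51.0 and 55.4 in smSP, a stepwise order in which only mSP and smSP overlapped. A short way further downstream, 2 adjoining peaks had preTreg alone on top. The first, 29.8 kb from the start (chr10:118470679-118470825), had 11.1, 9.66, 20.7 and 9.60 in Treg, 46.2, 42.4, 48.9 and 31.2 in preTreg, 4.26, 2.69, 6.88 and 7.18 in mSP and 9.21, 3.14, 2.69 and 6.52 in smSP. The second, 29.9 kb from the start, averaged 35.8 ± 5.16 in preTreg and 13.9 ± 5.72 in Treg, again with all preTreg libraries above all others. The strongest of the 52 peaks, 21.9 kb upstream (chr10:118418942-118419469), had means of 613 ± 26.6 in preTreg, 541 ± 55.4 in Treg, 607 ± 53.4 in smSP and 603 ± 36.0 in mSP, so it was open to an overlapping extent in all.

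**Figure D3:**
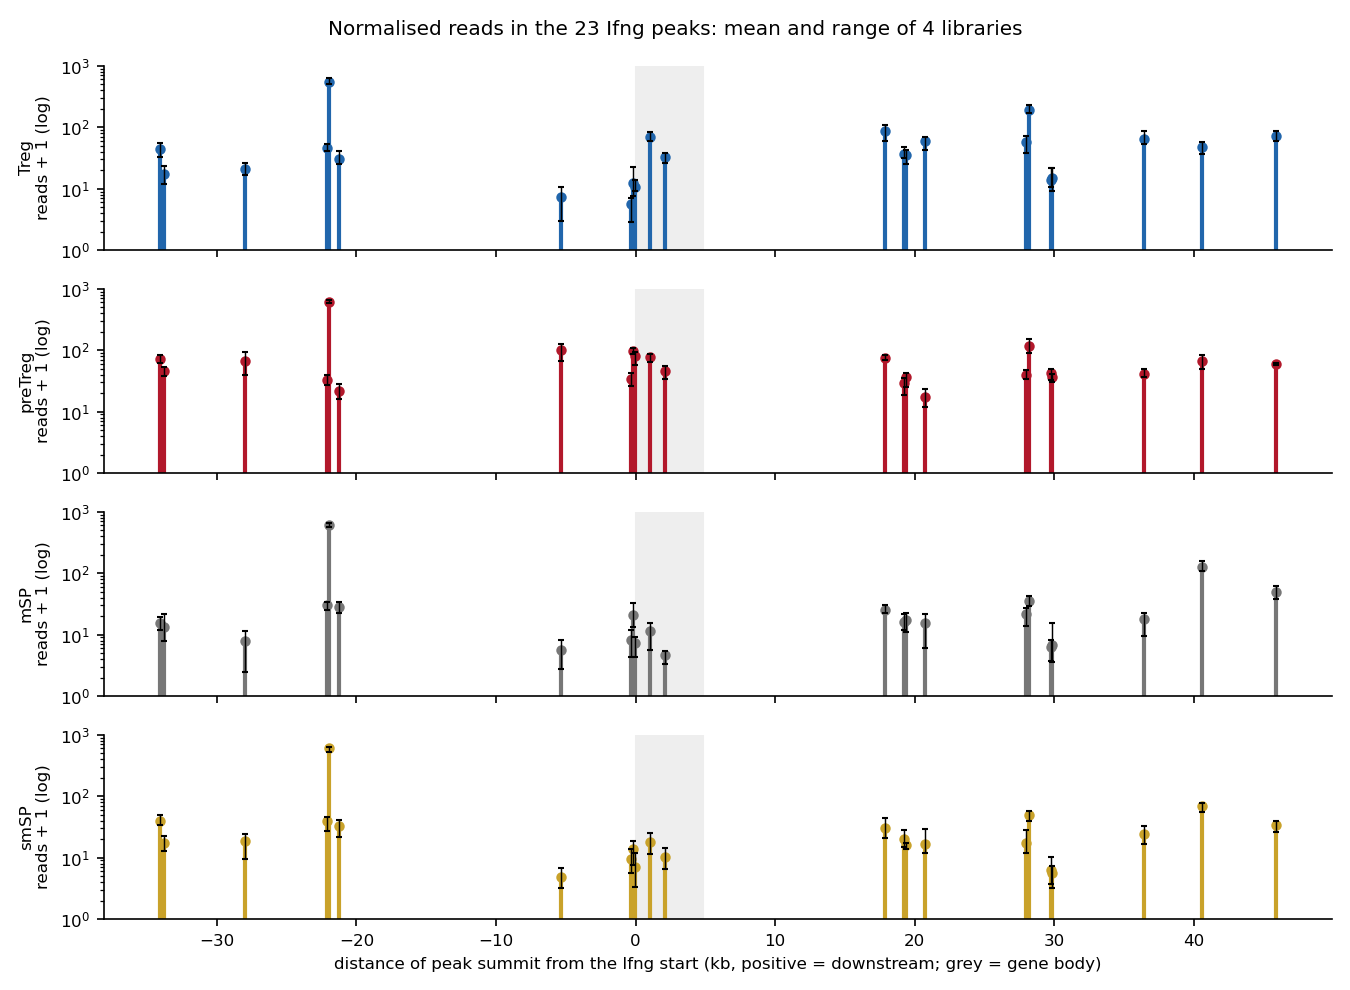
Signal + 1 (log scale) of the 23 Ifng peaks by distance of the deposited peak summit from the gene start in kb, with 1 panel per population; points are means of 4 libraries, bars their range, and the grey band is the gene body. The stretch just upstream of the start is high in preTreg only, and the downstream peaks are higher in Treg and preTreg than in smSP at most positions.

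Of the chemokine gene Ccl5 (chr11:83525778-83530518), whose strand the tables used here do not give, both peaks lay on the side of higher coordinates. The peak 4.62 kb from the gene (chr11:83535139-83535354) had 16.2, 17.3, 23.1 and 18.2 in Treg, 57.4, 59.1, 80.3 and 80.0 in preTreg, 0.851, 5.38, 2.29 and 5.74 in mSP and 0, 0, 2.69 and 6.52 in smSP. The order was preTreg, then Treg, then both SP populations, with overlap only between the last 2 and a preTreg mean 3.70-fold that of Treg. The other peak (chr11:83550177-83550298, 19.7 kb from the gene) had 45.5, 40.7, 70.5 and 32.6 in Treg, 46.2, 53.0, 37.9 and 54.2 in preTreg, 34.9, 36.8, 26.4 and 27.3 in mSP and 17.3, 19.6, 17.5 and 25.0 in smSP. There Treg and preTreg overlapped, with means of 47.4 ± 16.3 and 47.8 ± 7.51.

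The granule genes were unlike each other. Nkg7 (chr7:43437138-43438246, plus strand) had preTreg alone at both of its peaks, as Tbx21 and Cxcr3 had at theirs. Its start peak (chr7:43436968-43437168) had 16.2, 22.8, 34.1 and 21.1 in Treg, 46.2, 53.8, 63.7 and 53.3 in preTreg, 5.96, 5.38, 8.03 and 2.87 in mSP and 10.4, 2.35, 6.72 and 3.26 in smSP. The peak just past the gene end (chr7:43438701-43439034) had 25.3, 22.1, 40.1 and 27.8 in Treg, 113, 116, 148 and 131 in preTreg, 11.9, 8.96, 6.88 and 21.5 in mSP and 15.0, 18.0, 17.5 and 15.2 in smSP. At both, preTreg exceeded Treg, by 2.31-fold and 4.40-fold, and Treg exceeded both SP populations, in each case without overlap.

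All 7 peaks of Gzmb (chr14:56258836-56262334, minus strand) lay upstream, 14.0 to 42.1 kb before the start, and none at the gene. At chr14:56284492-56284677, 22.2 kb upstream, the signal was 46.5, 29.7, 42.6 and 61.4 in Treg, 88.2, 109, 114 and 125 in preTreg, 45.1, 55.6, 48.2 and 48.8 in mSP and 58.7, 40.0, 53.7 and 47.8 in smSP. This was the only Gzmb peak at which preTreg stood alone, at 2.43-fold the Treg mean. At the peak nearest the start (chr14:56276175-56276416) the signal was 47.5, 47.6, 45.0 and 58.6 in Treg, 23.1, 18.5, 25.9 and 34.0 in preTreg, 23.0, 26.0, 43.6 and 35.9 in mSP and 34.5, 49.4, 39.0 and 39.1 in smSP, so that preTreg was below Treg and smSP. The sums of the 7 peaks were highest in mSP, at 683 ± 137, followed by 612 ± 125 in preTreg, 605 ± 52.1 in smSP and 453 ± 20.9 in Treg, of which only smSP and Treg, as neighbours, were separated.

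Summed over its peaks, each gene other than Eomes and Gzmb was highest in preTreg. Tbx21 summed to 29.9 ± 4.94 (Treg), 158 ± 10.4 (preTreg), 17.7 ± 9.92 (mSP) and 23.1 ± 6.02 (smSP). For Tbx21 and Cxcr3 the separated step in the order was the first, between preTreg and Treg. For Nkg7, Ifng and Ccl5 the step from Treg to the next population was separated too, and mSP and smSP were separated for none of these 5 genes. Over the 16 libraries the log2 sum of Nkg7 had a Pearson correlation of 0.968 with the mean of the other 7 genes, and those of Cxcr3, Ifng, Tbx21 and Ccl5 were 0.918, 0.905, 0.889 and 0.863. The values were 0.525 for Il18r1, 0.0156 for Eomes and -0.133 for Gzmb. They mostly restate the 4 population means, since the libraries form 4 populations, and they are descriptions.

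Among 8412 other genes with at least 3 peaks and a mean sum of at least 50, those whose log2 sums ran most like the mean of the 8 genes over the 16 libraries included Maf (Pearson r 0.981), Gnptab (0.981), Ipmk (0.976) and 2700097O09Rik (0.970). Maf, which encodes the transcription factor c-Maf, summed over its 12 peaks to 1629.8 ± 29.7 in preTreg, 1143 ± 62.4 in Treg, 950.5 ± 46.8 in smSP and 995 ± 37.1 in mSP. Just outside the rule, peaks with another nearest gene also had their highest mean in preTreg at 5 of the 8 loci, of which Eomes differed least between populations. Means in Treg, preTreg, mSP and smSP were 16.1, 35.2, 5.70 and 5.67 at the peak 545 bp from Nkg7, which is nearer to Lim2. They were 39.7, 102, 13.5 and 11.1 at the peak 33.0 kb from Cxcr3, nearer to Gm4779, and 46.2, 82.4, 32.9 and 39.7 at the peak 14.4 kb from Il18r1, nearer to Il18rap. At the peak 11.5 kb from Tbx21, nearer to Tbkbp1, they were 78.4, 106, 36.1 and 43.8. The next peak of Ifng, 61.8 kb away, averaged 54.1, 49.0, 33.9 and 21.4.

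Whether loss of CNS4 changed these genes was asked first within each population. In Treg 0 of 52 peaks passed an adjusted p of 0.05 by limma (1.77% of all tested peaks did), with 4 at an unadjusted p under 0.05 and 0 by edgeR or DESeq2. In preTreg 0 passed (0.409%), with 7 at an unadjusted p under 0.05 and a lowest adjusted p of 0.0623 by limma, whereas edgeR called 2 and DESeq2 1, all of them Gzmb peaks higher in KO. With the replicate number as a block, limma also called 1 in preTreg, the Gzmb peak 34.7 kb upstream (adjusted p of 0.0334). That block pairs FL with KO mice that share only a number. In mSP 0 passed (0.246%) and in smSP 0 (0.0848%), with 7 and 6 at an unadjusted p under 0.05 and 0 by edgeR or DESeq2. Without the SP libraries of T8, mSP and smSP again had 0. Of the single libraries left out in turn, that of T8 in preTreg and that of T9 in mSP each raised the count from 0 to 1. The medians of KO minus FL over the 52 peaks were 0.21 (Treg), 0.23 (preTreg), 0.17 (mSP) and 0.17 (smSP) on the log2 scale, where those over all peaks were 0.00 in each population. With 2 libraries per group, a miss of the threshold does not show equality.

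The difference between Treg and preTreg was also compared between genotypes. The interaction had 0 of 52 peaks past an adjusted p of 0.05 by limma (0.596% of all tested peaks), 6 at an unadjusted p under 0.05, a lowest adjusted p of 0.161, and 0 calls by edgeR or DESeq2. At the peak 5.34 kb upstream of Ifng, the preTreg libraries of KO mice were the lower pair, at 64.6 and 98.3 against 127 and 115, and the Treg libraries of KO mice the higher pair. The interaction estimate there was 1.77 ± 0.837 (SE) with an adjusted p of 0.409 by limma. The strong contrast of preTreg with Treg at Tbx21, Nkg7, Cxcr3 and the Ifng start stood in both FL and both KO mice.

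Averaged over the 4 populations of each mouse, 2 of the 52 peaks were higher in KO mice by limma and none lower, where 1.72% of all tested peaks were higher and 0.639% lower. Both lie upstream of Gzmb. The peak at chr14:56296134-56296403, 33.9 kb before the start, had 52.6, 68.3, 88.8 and 54.7 in Treg, 104, 109, 179 and 156 in preTreg, 200.0, 163, 279 and 286 in mSP and 154, 147, 207 and 159 in smSP. The KO pair was above the FL pair in preTreg, mSP and smSP, and overlapped it in Treg. The mouse means were 128 and 122 in FL and 188 and 164 in KO, a log2 difference of 0.44 ± 0.0959 (SE) with an adjusted p of 0.0105 by limma. The neighbouring peak at chr14:56296819-56297095, 34.7 kb before the start, had 225, 194, 218 and 186 in Treg, 177, 192, 310.2 and 242 in preTreg, 245, 185, 317 and 297 in mSP and 227, 219.7, 259 and 288 in smSP. Again the pairs were apart in every population except Treg.

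At this neighbour the mouse means were 218 and 197 in FL and 276 and 253 in KO, a log2 difference of 0.33 ± 0.0748 (SE) with an adjusted p of 0.0128 by limma. Without mouse T7 neither of these Gzmb peaks passed (adjusted p of 0.174 and 0.0801 by limma), and without mouse T10 the second did not (adjusted p of 0.244), so each call depends on single mice. Over all settings tried, the adjusted p by limma, edgeR or DESeq2 ran from 2.6e-06 to 0.174 for the first and from 0.00020 to 0.244 for the second. The estimates of KO minus FL over all populations were positive at 41 of 52 peaks, with a median of 0.20, at all 7 of Gzmb, all 8 of Il18r1 and 19 of 23 of Ifng, but 1 of 5 of Eomes. The median over all tested peaks was 0.00. The calls numbered 5 with edgeR, which added peaks of Il18r1, Ifng and Ccl5, all higher in KO. They numbered 4 by limma with the replicate number as a block, which added 2 peaks of Il18r1. That block too pairs FL and KO mice that share only a number.

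**Figure D4:**
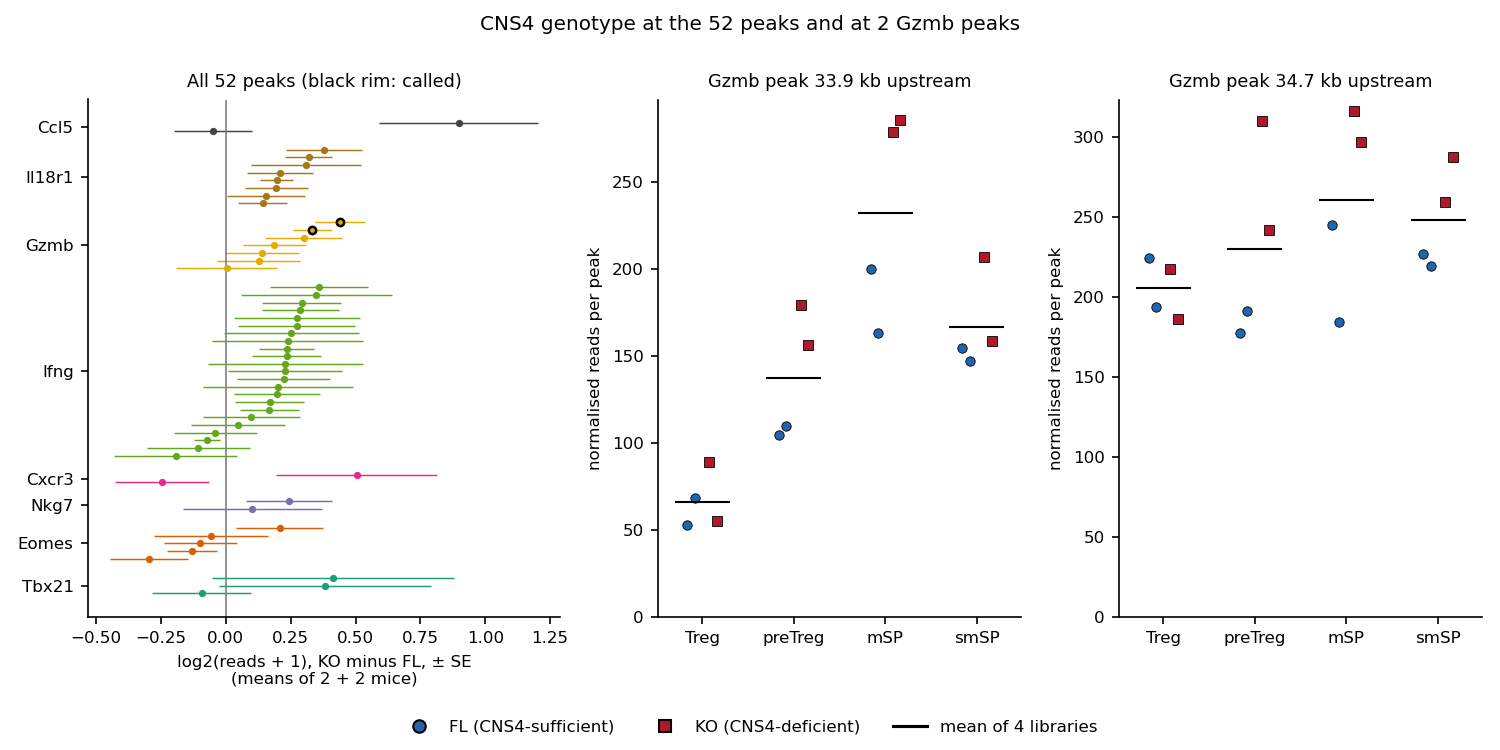
Left, KO minus FL difference of log2(signal + 1) over the means of 2 FL and 2 KO mice with its limma SE for each of the 52 peaks, with the 2 called peaks rimmed in black. Middle and right, the signal (axes from 0) of these 2 Gzmb peaks in each library, with the mean of 4 libraries as a line; KO squares lie above FL circles in preTreg, mSP and smSP and among them in Treg.

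Between the libraries labelled mSP and smSP, 12 of the 52 peaks differed by limma, 6 higher in mSP and 6 lower, where 8.65% of all tested peaks were higher and 7.3% lower. The lower ones were 2 peaks of Il18r1 and 4 of Ifng, and the higher ones 2 of Ifng and 1 each of Cxcr3, Ccl5, Gzmb and Eomes. None belonged to Tbx21 or Nkg7, which is not read as a result. In these libraries the Tbx21 peaks 6.07 and 2.51 kb inside the gene held 0 to 6 reads and the Nkg7 start peak 2 to 9. The Tbx21 start peak held 5 to 29 reads and the Nkg7 peak just past the gene end 6 to 23. Whether read numbers bear on the lack of calls was not tested. At the Il18r1 peak that also set preTreg apart (chr1:40469976-40470235, values above), mSP was lower by a log2 difference of -1.12 ± 0.170 (SE), with an adjusted p of 1.7e-05 by limma and the same sign in 4 of 4 mice. The next Il18r1 peak (chr1:40473770-40473994) had 52.8, 32.3, 57.4 and 35.9 in mSP and 96.7, 87.9, 107 and 66.3 in smSP, without overlap. Its log2 difference was -1.01 ± 0.172 with an adjusted p of 0.00010 by limma, again in 4 of 4 mice.

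At Ifng the far upstream peak at chr10:118406914-118407094, 34.1 kb before the start, had 11.1, 15.2, 12.6 and 18.7 in mSP and 36.8, 35.3, 33.6 and 48.9 in smSP. Its log2 difference of -1.37 ± 0.199 (adjusted p of 7.6e-06 by limma) held in 4 of 4 mice. The peaks at -28.0 kb (-1.36 ± 0.349), 2.11 kb (-1.12 ± 0.321) and 28.2 kb (-0.47 ± 0.140) from the start were lower in mSP too. The last was so in 3 of 4 mice. At 2.11 kb the libraries held only 2 to 5 reads in mSP and 5 to 10 in smSP. At -28.0 kb the T8 pair, with 1 and 21 reads, gave -3.29, where the other mice gave -0.24 to -0.99. In the other direction, the peak at 40.6 kb (chr10:118481576-118481794) had 112, 107, 159 and 118 in mSP and 73.7, 54.1, 64.5 and 77.2 in smSP. It was higher in mSP by 0.87 ± 0.154 (adjusted p of 0.00013 by limma), and the peak at 45.9 kb by 0.50 ± 0.171. Downstream peaks thus went both ways.

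The start peak of Cxcr3 was higher in mSP by 0.89 ± 0.249, the Ccl5 peak 19.7 kb from the gene by 0.63 ± 0.218, and the Gzmb peak 33.9 kb upstream by 0.45 ± 0.132, each in 4 of 4 mice. The Eomes peak 11.6 kb from the start (chr9:118489773-118489936) had 100.4, 144, 129 and 129 in mSP and 110.5, 96.5, 95.4 and 67.4 in smSP, higher in mSP by 0.45 ± 0.135 in 3 of 4 mice. The adjusted p of these 4 peaks ran from 0.0122 to 0.0427 by limma. Without the SP libraries of T8, limma called 13 peaks, 3 higher and 10 lower in mSP, and the calls at Gzmb, Eomes, Ccl5, Ifng -28.0 kb and Ifng 45.9 kb were lost. With the T8 libraries taken by description in place of title 0 were called. Leaving out single libraries gave 8 to 13 calls, with 8 without the mSP or the smSP library of T10 or the mSP library of T7.

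**Figure D5:**
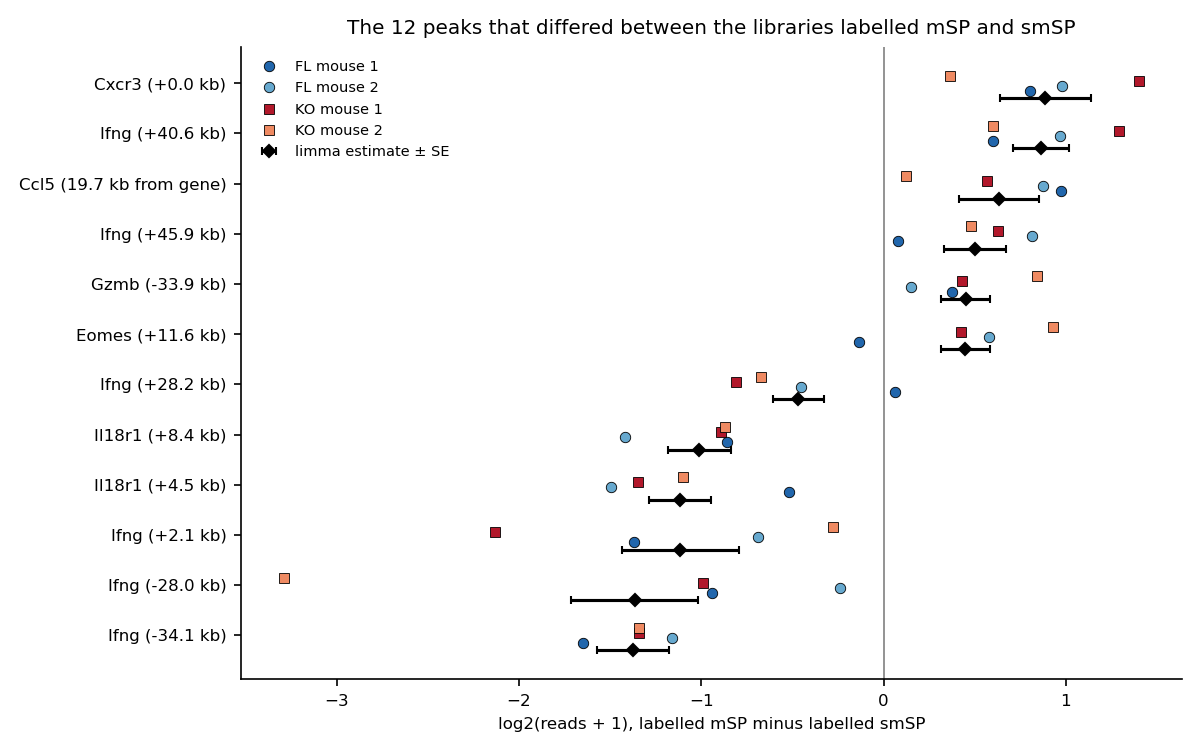
Difference of log2(signal + 1) between the libraries labelled mSP and smSP at the 12 called peaks, with 1 point per mouse and the limma estimate with its SE as a diamond; peaks are named by gene and distance from the start (for Ccl5, from the gene). The 6 peaks at the top are higher in mSP and the 6 at the bottom lower, with 1 mouse on the other side at Eomes and at Ifng 28.2 kb.

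Beside the 8 genes, other genes of the program were read from lists. The lists were chosen with results of these data known, and the peaks named with values are among the largest changes. Their adjusted p by limma thus describe selected peaks and are not independent evidence. Of 23 genes of the type 1 pathway, the receptors, kinases and factors upstream of T-bet or interferon gamma and their partners, 245 peaks were tested. Between Treg and preTreg, limma called 51 higher and 56 lower in Treg, with a median log2 difference of 0.07, where 14.2% of all peaks were higher and 14.6% lower with a median of -0.03. The largest falls in Treg were at Zeb2, a factor that acts with T-bet (8.29 ± 2.11 in Treg, 67.1 ± 7.11 in preTreg, adjusted p of 2.4e-11 by limma), Slamf7, a SLAM family receptor (10.4 ± 4.82 and 63.5 ± 5.32, 1.7e-05) and Il2rb, a chain of the IL-2 receptor (15.5 ± 7.71 and 85.4 ± 19.9, 2.4e-07). The largest rises included Hopx, a homeodomain protein of effector T cells (50.5 ± 17.2 and 7.56 ± 3.13, adjusted p of 0.00042 by limma), and Slamf1, another SLAM family receptor (64.4 ± 8.57 and 21.4 ± 3.44, 5.2e-07). These values are of single peaks, and of the 10 peaks of Il2rb, 2 were higher and 2 lower in Treg. Runx3 and Il12rb2, a factor and a receptor chain of the program, each had 6 peaks lower in Treg and 1 higher, of 17 and 16. Ifngr1 had 5 of 13 higher and 0 lower.

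Of 20 cytotoxic and type 1 effector genes with 110 peaks, 16 peaks were higher and 41 lower in Treg than in preTreg, with a median of -0.29. Fasl, a death ligand, had 13 of 24 peaks lower and 2 higher. The largest falls were at Klrg1, an inhibitory receptor of effector cells (16.7 ± 8.04 in Treg, 67.6 ± 5.33 in preTreg, adjusted p of 4.6e-05 by limma), the granzyme gene Gzmk (28.9 ± 14.1 and 108 ± 10.9, 4.3e-05) and the cytokine gene Il10 (33.6 ± 15.8 and 119.7 ± 27.9, 9.2e-06). The largest rises were at the chemokine gene Xcl1 (38.7 ± 7.10 and 13.5 ± 4.78, 0.0031), the chemokine receptor gene Ccr2 (110.1 ± 11.3 and 43.6 ± 9.74, 3.3e-09) and Ctsw, a protease of cytotoxic cells (57.1 ± 10.8 and 32.7 ± 10.5, 0.0011), all with adjusted p by limma. Genes of the type 2 program gave 7 higher and 9 lower of 46 peaks, and of the type 17 program 20 and 20 of 74. High preTreg values were not particular to type 1 genes. Mean sums in Treg, preTreg, mSP and smSP were 31.5, 129.6, 9.43 and 15.9 for Il17a, of the type 17 list. They were 45.8, 122, 38.4 and 39.9 for Il1r1, of the same list, and 20.2, 50.1, 3.11 and 2.71 for Il1rl1, of type 2. Maf (sums above) is also on the type 2 list. At these genes every preTreg library exceeded all others. The other genes of both lists with a peak had their highest mean in another population. Because of how the lists were chosen, these counts and p-values are not independent evidence.

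From mSP to preTreg the 245 pathway peaks had 103 higher and 69 lower in preTreg, and the 110 effector peaks 46 and 36, where 28.9% of all peaks were higher and 29.4% lower by limma. Among the largest were Jak2, a kinase of cytokine receptors (392 ± 32.9 in preTreg, 18.6 ± 5.42 in mSP, adjusted p of 2.0e-19 by limma) and another Gzmk peak (95.5 ± 9.78 and 0.784 ± 0.912, 1.7e-11). Jak2 as a whole was mixed, with 2 of its 11 peaks higher and 3 lower in preTreg. Not all effector genes were more open in preTreg. Prf1, the gene of perforin, had all 4 peaks lower, with 87.4 ± 22.6 in preTreg and 237 ± 38.1 in mSP at the peak with the largest difference (adjusted p of 1.6e-11 by limma). Il12rb2 had 13 of 16 peaks lower in preTreg and 0 higher. Without the SP libraries of T8 the lists together had 142 higher and 98 lower. Between mSP and smSP these lists together had 38 higher and 45 lower of 355 peaks by limma, 27 and 32 without the SP libraries of T8, and 26 and 29 without the mSP library of T10.

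Markers of other lymphocytes were read beside these values, since the gate on TCRβ+CD4+ cells lets CD4+ natural killer T cells pass. Of 16 genes of innate-like T and NK cells 13 had a peak, while Ncr1, Fcer1g and Trdc had none in the table. The summed signal ran 5086 to 5259 in Treg, 4602 to 4925 in preTreg, 5374 to 5689 in mSP and 5115 to 5483 in smSP, lowest in preTreg. Between Treg and preTreg this order rested on Kit. Its means, 794 in Treg and 275 in preTreg, lay further apart than the mean sums, 5189 and 4783. Zbtb16, the defining factor of innate-like T cells, averaged 71.2 in preTreg, 88.5 in Treg, 94.4 in smSP and 169 in mSP. Klrc1, an NK receptor gene, averaged 128 in preTreg, 97.2 in mSP, 71.9 in smSP and 22.1 in Treg. Tyrobp and Id2 also had their highest mean in preTreg, while Cd160, Cd244a and Sox13 had their lowest there. The CD8 T cell list summed to 2111 to 2323 in preTreg, 1928 to 2163 in Treg, 2486 to 2661 in mSP and 2392 to 2540.2 in smSP. Its genes differed. Cd8a averaged 47.3 in preTreg against 107 to 178 elsewhere, Cd8b1 143 against 246 to 404 and Itgae 450 against 470 to 521. Runx3 was highest in preTreg, at 1284 against 987 to 1067, and Nrgn was lowest in Treg, at 241 against 298 in preTreg. Lists for B cells, for myeloid and dendritic cells and for erythroid and stromal cells had peaks at 3 of 7, 5 of 10 and 6 of 9 genes. In preTreg they summed to 152 to 213, 1129.6 to 1256 and 493 to 546, in Treg to 252 to 334, 1051 to 1218 and 530.3 to 628, and in mSP to 359 to 414, 1597 to 1618 and 736 to 775. In smSP they summed to 331 to 349.9, 1566 to 1675 and 639 to 751. Genes within these lists differed. Flt3, of the myeloid and dendritic list, averaged 284 in preTreg, 384 in Treg, 863 in mSP and 774 in smSP. Its means in preTreg and both SP populations lay further apart than the mean sums of the list, 1181, 1603 and 1621. Cebpa, of the same list, averaged 125 in preTreg, 64.5 in Treg, 24.5 in mSP and 16.5 in smSP. Of the erythroid and stromal list, Klf1 and Col1a1 had their highest mean in preTreg, and Gata1 and Epcam their lowest. The part of such cells in the preTreg values was not tested.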

How the data were processed

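The authors deposited 1 table for the series with the signal of each of 73442 peaks in 16 libraries. Signal is the read number scaled by 1 factor for the library (size factors of 0.697 to 1.45 were recovered), and 100% of values gave whole reads within 0.0001. Per the submitters' processing notes, Trimmomatic 0.36, STAR 2.5.4b, SAMtools 1.10, Genrich, R 3.6.3 and DESeq2 1.24.0 were used with the mm10 build; their roles and settings are not given in the sources used here. Whether peaks were called per library or on pooled libraries is not given either. Totals of 5585827 to 11437401 reads in peaks, with a median of 38 to 76 reads per peak and library, limit the precision of weak peaks.

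Gene bodies, strands and sequences came from RefSeq (GRCm38.p6). Signal was tested with limma 3.58.1 in R 4.3.3 (trend and robust) on log2(signal + 1) over the 73140 peaks with a mean of at least 10, all 16 libraries sharing 1 estimate of the spread, with Benjamini-Hochberg adjustment at 0.05. The plan had foreseen counts, so limma on deposited signal replaced a count test as the main test, and edgeR 4.0.16 and DESeq2 1.42.0 ran on the recovered reads. Genotype over all populations used 1 mean per mouse. Differences and errors are on the log2(signal + 1) scale, on which folds of peaks with few reads come out too small. The method was also run on simulated counts, for genotype in Treg and for mSP against smSP only. The simulation held no mouse effect and did not cover the test on mouse means. Its outcome is not given here, and no result rests on it.

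The members and lists were chosen with earlier results of these data known. Peaks are named by rule: for each gene, the start or gene body peak, the peaks most different between preTreg and Treg, and every called peak; for other lists, the 3 largest changes of different genes in each direction, and the 5 genes most like the members; some genes that the rule names are not reported here. Alternatives were a pseudocount of 5, no filter, equal totals, quantile scaling, edgeR, DESeq2, T8 by description, a replicate block, each library left out, and gene body peaks only; leaving out both SP libraries of T8 was added after seeing the data. Libraries of 1 mouse come from 1 animal, so they pair populations within a genotype; correlations of their deviations from the group means ran from -0.00919 to 0.0879 over 24 pairs. FL and KO mice share only a number. For the genotype contrasts the replicate block paired them by that number, and for the interaction and the population contrasts it was by mouse. Mice are separate animals, so p-values cover 2 animals per genotype.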

Additional observations from a re-analysis of the deposited data

How the results depend on the processing

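The counts of 0 genotype calls in Treg and smSP, and of the interaction, stayed 0 under every alternative tried. In preTreg the count of 0 became 1 with a pseudocount of 5, 2 with edgeR, 1 with DESeq2 and 1 with the replicate block. Over all populations the 2 calls became 5 with edgeR and 4 with the block, which there went by replicate number. In gene bodies only they became 0 of 17. The block moved no other count by over 1.5 times. The 12 calls between mSP and smSP became 0 with T8 by description and 4 of 17 in gene bodies, and 2 of them reversed by description, Ifng -28.0 kb to 0.28 and Eomes 11.6 kb to -0.016. The list calls in gene bodies (194 peaks) were 83, 139 and 42 for Treg against preTreg, preTreg against mSP and mSP against smSP; the last was 48 with DESeq2 and 0 by description. Peaks not overlapping, in either direction, numbered 7, 14 and 11 of 17 in gene bodies for preTreg against Treg, mSP and smSP. Of all tested peaks, 12.2%, 24.3% and 19.2% were all higher and 12.4%, 25.6% and 19.9% all lower. Nothing is read from these counts.

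With single libraries or mice left out, genotype calls ran from 0 to 1 in preTreg and in mSP, 1 to 3 over all populations, 0 to 0 in Treg, smSP and the interaction, and 8 to 13 between mSP and smSP. List calls ran from 137 to 148, 234 to 247 and 55 to 75, and peaks not overlapping from 27 to 30, 36 to 39 and 33 to 36. With fewer libraries any peak overlaps less easily, and the shares over all tested peaks are not given for these settings. The ranges of peaks not overlapping are therefore descriptions only. Over all settings, single peaks kept sign and call in 168 cases, lost the call in 58 and reversed in 2. The causes were not tested. Weak peaks, some at 0 reads, limit the folds at Tbx21 and Cxcr3 in mSP.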
